A study of Rattus norvegicus with 9 samples.

Results

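The let-7 microRNAs of the rat hippocampal CA1 region were taken as every entry of 18 to 26 nt whose first 8 bases equal those of novel_8482_x433, the entry with the sequence of let-7f-5p. The rule used sequence only and found 90 of the 5794 entries of a table of normalised small RNA tag counts. Of these, 48 exceeded 0 in at least 1 library and 42 were listed at 0 or blank throughout. The libraries came from adult male Wistar rats of 7 to 8 weeks in 3 groups of 3. Sham served as control. The tGCI26h rats underwent transient global cerebral ischemia (tGCI), and 26 is the hour in that label. HPC0h carries the hour 0, and its abbreviation HPC is not spelled out in the labels. The labels name no genotype, transgene or further agent in any group. The libraries were size-selected for piRNAs, which are longer than let-7. How that selection acted on let-7 was not tested.

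Libraries are called by group and letter, and 3 values for a group follow the order of its letters. Headings with 3 numbers gave the libraries lettered a, b and, for HPC0h, c. The HPC0h columns were placed by inference: their headings start with P0, which matches the hour of that label and the pattern of the other headings, and no label states the link. Every HPC0h value rests on it. A heading without numbers gave 1 Sham and 1 tGCI26h library, lettered u. The labels do not say whether libraries are separate or pooled animals, so n counts libraries and each p measures only the spread between them, which may be technical. Sham u and tGCI26h u stood apart from the 7 numbered libraries, with 1201 and 708 entries above 0 against 2558 to 2936. The group comparisons below are given with and without them. Library totals of 961372 to 992081 show the authors' scaling and not the depth, which is unknown.

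MicroRNAs are cut from hairpin transcripts by Drosha and Dicer and loaded into Argonaute proteins, where bases 2 to 8, the seed, select target mRNAs. The let-7 family, first described in Caenorhabditis elegans, shares 1 seed and is known for repressing LIN28, HMGA2 and RAS family mRNAs, while LIN28 in turn blocks the maturation of let-7 precursors. In the mammalian nervous system mature let-7 accumulates as progenitors leave the cycle and stays abundant in adult neurons. The entries taken here share their first 8 bases, so they were assigned to members by the bases behind the seed.

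The annotated rat sequences (RefSeq, build GRCr8) were used for that assignment. The 5 full-length entries, which hold most let-7 tags, are shown first, with the seed in capitals, so that the few bases that tell the members apart can be seen.
novel_8482_x433, let-7f: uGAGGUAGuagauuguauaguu
novel_14410_x210, let-7g: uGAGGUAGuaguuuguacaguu
novel_6008_x702, let-7i: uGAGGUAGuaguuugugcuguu
novel_2260_x2825, let-7b: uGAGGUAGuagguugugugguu
novel_10043_x345, let-7e: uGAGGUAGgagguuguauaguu
These 5 entries are identical to the annotated mature sequence. In RefSeq GRCr8, let-7f-5p lies at 2 loci, chr17:16320508-16320529 and chrX:24460052-24460073, both on the plus strand. let-7g-5p lies at chr8:115701026-115701047 (plus), let-7i-5p at chr7:60527935-60527956 (minus), let-7b-5p at chr7:118684044-118684065 (plus) and let-7e-5p at chr1:67350243-67350264 (plus). An entry cannot tell the 2 let-7f loci apart.

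The longest let-7 entries were 2 of 23 nt, both let-7b with 1 further base at the 3′ end. They are shown because they held more tags than the annotated 22 nt form.
novel_7508_x513, let-7b plus U: uGAGGUAGuagguugugugguuu
novel_10846_x310, let-7b plus A: uGAGGUAGuagguugugugguua
Shortened forms tell let-7a from let-7c only from the 19th base on, as the most abundant entry of each shows.
novel_1371_x6078, let-7a, 20 nt: uGAGGUAGuagguuguauag
novel_374_x41474, let-7c, 20 nt: uGAGGUAGuagguuguaugg
novel_1555_x4952, miR-98, 19 nt: uGAGGUAGuaaguuguauu
Full-length entries of let-7a, let-7c and miR-98 were not analysed here, so the values of these 3 members cover shortened forms and are no measure of their whole level. let-7d begins with A, falls outside the rule and is given at the end with the related microRNAs.

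Of the 90 entries, 67 matched 1 member best and 23 matched several members equally well. By form, 5 were identical to a mature sequence, 27 were shortened at the 3′ end, 2 were extended and 56 differed by 1 base from the nearest mature sequence. Every identical, shortened and extended entry was above 0 somewhere, as were 14 of the 56 mismatched ones. By member, let-7f had 21 entries (8 above 0), let-7g 18 (7 above 0), let-7i 8 (7), let-7b 8 (7), let-7e 5 (5), let-7c 3 (2), let-7a 2 (2) and miR-98 2 (2). No entry with these first 8 bases lay outside 18 to 26 nt, and 60 of the 90 were of 18 nt.

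Of the 5 members seen at full length, let-7f was the most abundant. Its 22 nt entry novel_8482_x433 held 43397, 46245 and 19366 tags in Sham, 59985, 48171 and 746 in tGCI26h, and 38664, 40905 and 44479 in HPC0h. The means were 36336 ± 14765, 36301 ± 31353 and 41349 ± 2933 tags (SD, n = 3 each). Sham u lay below all numbered libraries and tGCI26h u was lowest, so the groups overlapped. The entry ranked 3 to 6 among all entries in the numbered libraries, 11 in Sham u and 180 in tGCI26h u. let-7f is known from rat stroke studies, in which its antagonists were tested as neuroprotectants in females.

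let-7g and let-7i followed close together. novel_14410_x210 (let-7g) held 38260, 35433 and 11685 tags in Sham, 39269, 32444 and 282 in tGCI26h, and 33054, 31620 and 35817 in HPC0h. novel_6008_x702 (let-7i) held 35950, 36127 and 8638 in Sham, 35058, 30877 and 1898 in tGCI26h, and 36743, 31481 and 32866 in HPC0h. All groups overlapped for both entries. let-7g stood above let-7i in 6 of 9 libraries, so these neighbours did not differ beyond the spread between libraries. let-7f was the highest 22 nt entry in 8 of 9 libraries, with let-7i above it in tGCI26h u.

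let-7b, a member known in mouse for restraining neural stem cell proliferation, was spread over 3 abundant entries. The form with an added U, novel_7508_x513, held 12565, 10996 and 2230 tags in Sham, 11953, 12765 and a blank in tGCI26h, and 11995, 10360 and 12134 in HPC0h. The 22 nt form novel_2260_x2825 held 9419, 8199 and 1757 in Sham, 8862, 9418 and a blank in tGCI26h, and 8863, 7482 and 9412 in HPC0h. The form with an added A, novel_10846_x310, lay between them, at 8667 to 10983 in the numbered libraries and 2060 in Sham u. In Sham u each was below its numbered values. let-7e had the lowest level of the 5 members seen at full length: novel_10043_x345 held 5819, 6100 and 2675 tags in Sham, 6742, 6639 and 79 in tGCI26h, and 5422, 5680 and 6279 in HPC0h. The numbered libraries of tGCI26h were above those of Sham and HPC0h for this entry. let-7e stood below the 22 nt form of let-7b in all 7 numbered libraries and above it in both unnumbered ones. Of the members seen only as shortened forms, let-7c had the highest entry in the numbered libraries, novel_374_x41474, at 505, 451 and 780 tags in Sham, 613, 611 and a blank in tGCI26h, and 432, 415 and 644 in HPC0h. In Sham u the 20 nt form of let-7a, novel_1371_x6078, was higher, at 924 tags.

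**Figure D1:**
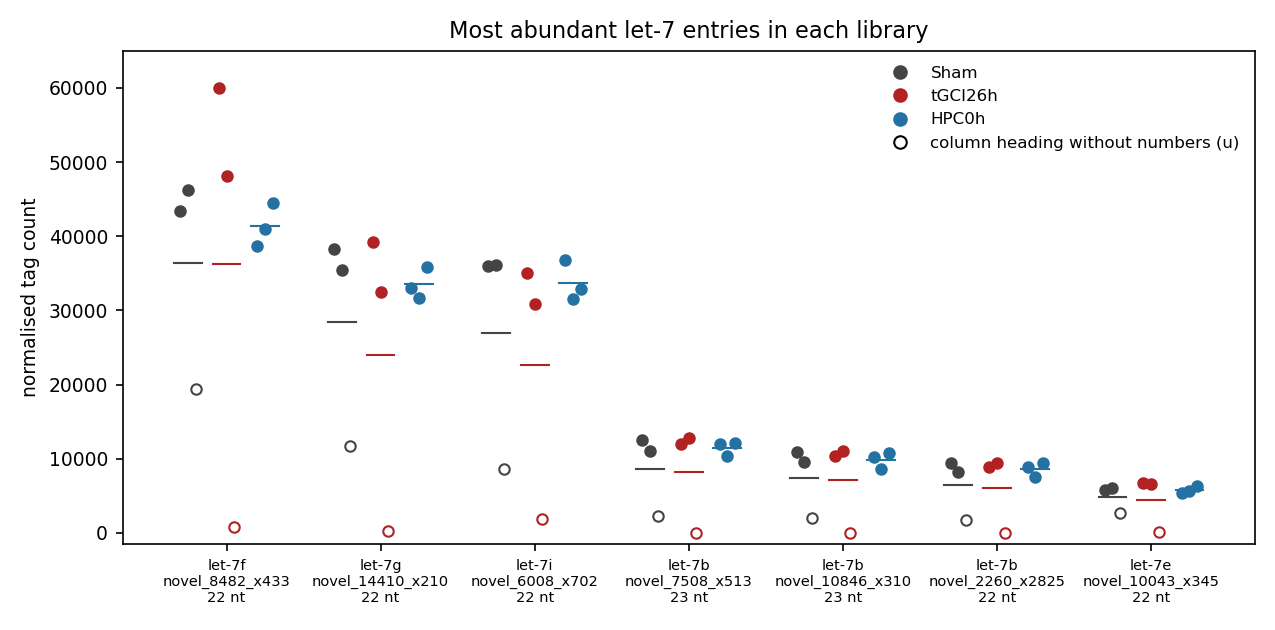
Normalised tag counts (linear axis) of the 7 most abundant let-7 entries in each of the 9 libraries, with filled points for numbered libraries, open points for Sham u and tGCI26h u, blanks drawn at 0, and a bar for the mean of each group of 3. For let-7f the 7 numbered libraries sit between 38664 and 59985, above Sham u at 19366 and tGCI26h u at 746, and the open points pull the Sham and tGCI26h means down for every entry.

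Summed over all 90 entries, let-7 held 17.0%, 16.6% and 6.09% of the library total in Sham, 18.9%, 16.6% and 0.312% in tGCI26h, and 15.7%, 14.9% and 16.7% in HPC0h. Full-length let-7a, let-7c and miR-98 are not part of this sum. Sham averaged 13.2% ± 6.18, tGCI26h 11.9% ± 10.1 and HPC0h 15.8% ± 0.925 (SD over 3 libraries each). In the numbered libraries alone they were 16.8%, 17.8% and 15.8%, so the order of the groups turned when Sham u and tGCI26h u were left out. The differences between group means were smaller than the SD of the Sham or tGCI26h group in each comparison. No p is given for a sum over members chosen with earlier results known, and 3 libraries against 3 could not reach below 0.1 in an exact permutation test. Of the tags in entries of 18 to 26 nt alone, let-7 held 15.7% to 19.9% in the numbered libraries, close to its share of the total. In bulk tissue, fewer cells of a type and less RNA per cell cannot be told apart.

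Shares within the family cover the listed entries only, which for let-7a, let-7c and miR-98 are shortened forms. They are thus not the make-up of the whole family. In the numbered libraries let-7f held 27.7% to 36.0% of these let-7 tags, let-7g 21.7% to 24.9%, let-7i 19.2% to 24.4%, let-7b 17.1% to 20.7% and let-7e 3.87% to 4.59%. In Sham u let-7f held 39.8% and let-7b 10.9%. In tGCI26h u, where only 6 let-7 entries had a value, let-7i held 61.8%, let-7f 25.4% and let-7g 10.3%. Sham u listed 30 let-7 entries above 0 and the numbered libraries 44 to 48.

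For tGCI26h against Sham, which sets ischemia beside control, limma with Benjamini-Hochberg adjustment over all entries with a mean of at least 1 tag called 0 of 38 let-7 entries at an adjusted p below 0.05, and 0% of all 2824 entries tested. At an unadjusted p below 0.05 it found 0 of 38 let-7 entries and 39 entries in all, 1.1% higher and 0.283% lower. With all 9 libraries, 33 of 38 let-7 entries had a log2 difference below 0 and 4 above, against 41.3% and 55% of all entries, and their median was -1.84 against 0.14 for all entries. In the 7 numbered libraries the direction turned, with 31 of 43 let-7 entries above 0 and 8 below, against 61.8% and 26.2% of all entries, and both medians at 0.21. The other 4 were equal in both groups. Median-of-ratios scaling of these 7 brought the medians to 0.03 and 0.05, with 23 of 43 let-7 entries above 0. Over 9 libraries the values of tGCI26h lay wholly above those of Sham for 0 of 38 let-7 entries and 2.27% of all entries, and wholly below for 0 of 38 and 2.3%. In the numbered libraries they lay wholly above for 18 of 43 let-7 entries and 27.8% of all entries, and wholly below for 2 of 43 and 7.71%. At an unadjusted p below 0.05 limma found 0 of 43 let-7 entries there, against 10% of all entries higher and 2.57% lower.

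The let-7 entries with the smallest unadjusted p in that comparison were shortened forms. novel_328_x51994 (let-7i, 20 nt) held 68, 62 and 244 tags in Sham, and 68, 61 and a blank in tGCI26h. Its log2 difference was -2.65 ± 1.64 (SE) with a limma adjusted p of 0.781. novel_1060_x9301 (let-7g, 20 nt) held 185, 141 and 639 in Sham and 207, 173 and a blank in tGCI26h, at a log2 difference of -2.96 ± 1.86 and the same adjusted p. novel_1371_x6078 (let-7a, 20 nt) held 169, 183 and 924 in Sham and 239, 216 and a blank in tGCI26h, at -3.04 ± 1.92. For all 3 the difference lay between Sham u, the highest library, and the blank tGCI26h u, whereas the numbered libraries alone gave log2 differences of -0.01, 0.23 and 0.37. At full length, let-7f had a log2 difference of -1.39 ± 1.26 over 9 libraries and 0.26 ± 0.13 over the numbered ones (limma adjusted p = 0.861 and 0.490).

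In HPC0h against Sham, limma called 0 of 38 let-7 entries, and 0% of all entries. At an unadjusted p below 0.05 it found 0 of 38, against 0.708% of all entries higher and 0.0354% lower. The median log2 difference of the let-7 entries was 0.27, against 0.53 for all entries, and 24 of 38 were above 0 and 14 below, against 61.3% and 34% of all. In the numbered libraries the let-7 median was 0.04, against 0.21 for all entries, and 28 of 43 were above 0 and 10 below, against 72.2% and 21.8% of all. Under median-of-ratios scaling it turned to -0.16, against 0.03 for all. No let-7 entry had all HPC0h values above or below all Sham values over 9 libraries (0 of 38), against 13% and 0.814% of all entries. In the numbered libraries 1 of 43 lay wholly above and 0 of 43 wholly below, against 18% and 4.03%. The 3 with the smallest unadjusted p were low in tags. They were novel_10739_x314 (18 nt, let-7a or let-7c with 1 mismatch), novel_11098_x301 (let-7f, 18 nt, with U18G) and novel_104_x245363 (let-7b, 19 nt). U18G is counted from the 5′ end. novel_104_x245363 held 7, 8 and a blank in Sham and 8, 7 and 10 in HPC0h, a log2 difference of 1.15 ± 1.22 with a limma adjusted p of 0.822. Without the unnumbered libraries the 3 differed by 0.53 ± 0.34, 0.14 ± 0.24 and 0.12 ± 0.17 in that order. At full length let-7g differed by 0.41 ± 1.44, let-7i by 0.59 ± 0.95 and let-7e by 0.34 ± 1.38 on the log2 scale over 9 libraries, each less than its SE. Over the numbered libraries the sign turned, to -0.14 ± 0.11, -0.10 ± 0.09 and -0.04 ± 0.07 (limma adjusted p = 0.613, 0.684 and 0.820 for novel_14410_x210, novel_6008_x702 and novel_10043_x345).

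HPC0h against tGCI26h shares its libraries with the comparisons above. limma called 0 of 38 let-7 entries, and 0% of all entries, and found 0 of 38 at an unadjusted p below 0.05, against 0% of all entries higher and 0.283% lower. All 38 were above 0 in log2 difference, as were 71.8% of all entries, with medians of 1.79 and 0.72. HPC0h lay wholly above tGCI26h for 1 of 38 let-7 entries, against 5.1% of all, and wholly below for 0 of 38, against 1.31%. In the numbered libraries 29 of 43 let-7 entries were below 0 and 10 above, against 45.8% and 48.7% of all entries. The largest differences were those of let-7b, which was blank in tGCI26h u: novel_7508_x513 differed by 4.42 ± 2.75 and novel_2260_x2825 by 4.29 ± 2.68 (limma adjusted p = 0.722 each). Without the unnumbered libraries they differed by -0.11 ± 0.10 and -0.10 ± 0.12.

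In the 7 numbered libraries, a choice made with these data known, limma called 0 of 43 let-7 entries in each comparison, beside 0.844%, 1.38% and 0.46% of all 2608 entries in tGCI26h against Sham, HPC0h against Sham and HPC0h against tGCI26h. In the last of these 3 let-7 entries fell under the unadjusted threshold of 0.05. let-7f (novel_8482_x433) was at a log2 difference of -0.38 ± 0.12 (limma adjusted p = 0.693), with all 3 HPC0h libraries below both tGCI26h libraries. let-7e (novel_10043_x345) was at -0.21 ± 0.07 (limma adjusted p = 0.695), also with no overlap. The 21 nt form of let-7i, novel_1433_x5650, was at 0.23 ± 0.08 (limma adjusted p = 0.695), with 1181, 1028 and 1126 tags in HPC0h and 962 and 933 in tGCI26h. By direction these were 1 of 43 higher and 2 of 43 lower, against 5.29% and 1.73% of all entries. HPC0h lay wholly below tGCI26h there for 6 of 43 let-7 entries, against 3.34% of all entries, and wholly above for 1 of 43, against 8.9%. In the other comparisons of numbered libraries 0 of 43 let-7 entries fell under the unadjusted threshold as deposited. Median-of-ratios scaling gave 0 of 43 in tGCI26h against Sham and 3 of 43 in HPC0h against Sham, all lower. Of all 2608 entries it gave 290 and 269, of which 110 and 99 were lower. Quantile normalization gave 2 and 1 let-7 entries, against 228 and 236 of all entries. In HPC0h against tGCI26h, median-of-ratios scaling gave 2 of 43 let-7 entries and quantile normalization 3 of 43, all lower. Of all 2608 entries, 61 and 53 were lower there, and 57 and 93 higher. A filter at a mean of at least 10 gave 2 of 28, both lower. The 21 nt form of let-7i was thus not under the threshold as higher in any of these settings.

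**Figure D2:**
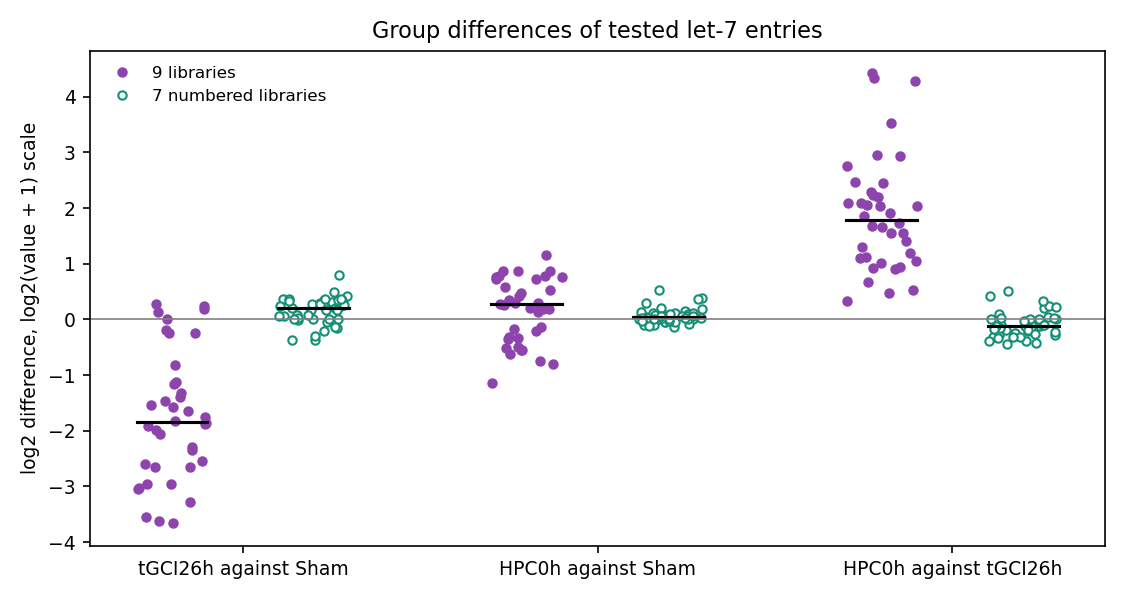
Log2 difference between group means on the log2(value + 1) scale for each tested let-7 entry in the 3 comparisons, with filled points for the fit of 9 libraries (38 entries), open points for the 7 numbered libraries (43 entries) and a black bar at each median. The medians move from -1.84 to 0.21 in tGCI26h against Sham and from 1.79 to -0.11 in HPC0h against tGCI26h when Sham u and tGCI26h u are left out.

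Ratios between members within a library do not depend on its scaling. The ratio of let-7f to let-7g at 22 nt was 1.13, 1.31 and 1.66 in Sham, 1.53, 1.48 and 2.65 in tGCI26h, and 1.17, 1.29 and 1.24 in HPC0h. The ratio of let-7f to let-7i was 1.21, 1.28 and 2.24 in Sham, 1.71, 1.56 and 0.393 in tGCI26h, and 1.05, 1.30 and 1.35 in HPC0h. Both ratios, singled out after their values were seen, were higher in tGCI26h a and b than in the other 5 numbered libraries. Of the 10 ratios between the 5 full-length entries, 3 placed tGCI26h a and b beyond those 5 on 1 side. Among all 3240 pairs of the 81 entries with a mean of at least 1000 tags there, 25.2% did so, a share near that of let-7. In the unnumbered libraries the ratio of let-7f to let-7i went the other way, since tGCI26h u had the lowest value and Sham u the highest.

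**Figure D3:**
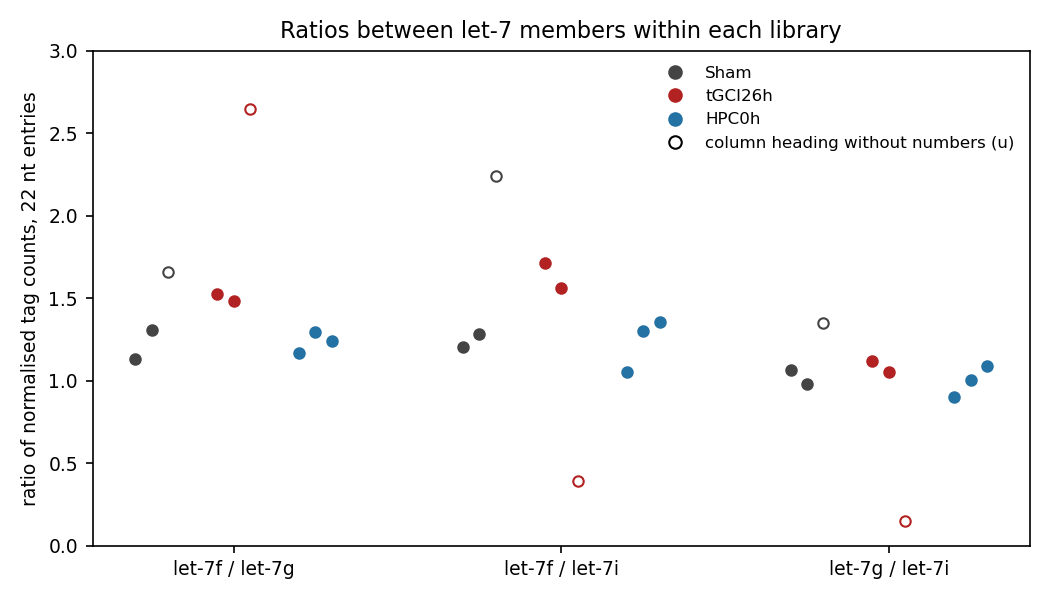
Ratio of normalised tag counts of 2 let-7 entries of 22 nt within each library (linear axis from 0), with filled points for numbered libraries and open points for Sham u and tGCI26h u. For let-7f over let-7g the tGCI26h points at 1.53 and 1.48 lie above the filled Sham and HPC0h points, while tGCI26h u lies at 2.65 for that ratio and at 0.393 for let-7f over let-7i.

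Forms of different length with the same 5′ end were measured for 5 members, and in each the numbered median was lower with every base lost at the 3′ end. For let-7f the median over the 7 numbered libraries was 44479 tags at 22 nt, 5147 at 21 nt, 261 at 20 nt, 81 at 19 nt and 57 at 18 nt. The 18 nt form, novel_5_x5356926, held 57, 52 and 42 tags in Sham, 78, 54 and a blank in tGCI26h, and 48, 61 and 67 in HPC0h. For let-7i the medians were 35058, 1028, 68, 11 and 2 tags in the same order. Its 18 nt form, novel_10_x4062681, held 2 tags in every numbered library and none in the unnumbered ones. The 18 nt form of let-7g, novel_7_x4504552, held 47 to 84 tags in the numbered libraries and 21 in Sham u, and the 18 nt sequence shared by let-7a and let-7c, novel_8_x4442431, held 15 to 23 and 18. None of these 18 nt entries had a value in tGCI26h u.

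The share that had lost the last base differed more between members than between numbered libraries. The 21 nt form held 10.6% to 12.2% of the tags of the 22 nt form for let-7f, 11.1% to 12.7% for let-7e, 8.37% to 9.50% for let-7g, 7.04% to 8.68% for let-7b and 2.74% to 3.43% for let-7i. The range of let-7i lay below those of the other 4, although let-7i and let-7g had like levels at 22 nt. In Sham u the share was 14.0%, 13.7%, 11.8%, 18.6% and 8.43% in the same order, above each numbered range. In tGCI26h u only let-7f and let-7g had a 21 nt value, at 4.56% and 12.1%.

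Shorter forms stood out in Sham u. The 20 nt form of let-7f, novel_891_x12109, held 259, 255 and 918 tags in Sham, 392, 283 and a blank in tGCI26h, and 229, 261 and 319 in HPC0h. Relative to the 22 nt form this was 0.551% to 0.717% in the numbered libraries and 4.74% in Sham u. Over all let-7 tags, shortened forms held 7.17%, 7.33% and 17.3% in Sham, 8.20%, 7.81% and 2.21% in tGCI26h, and 6.96%, 7.39% and 8.25% in HPC0h. Forms of 22 nt held 77.7% to 80.2% in the numbered libraries, 75.4% in Sham u and 97.8% in tGCI26h u. The 19 nt form of miR-98, novel_1555_x4952, held 143 tags in Sham u and 5 to 9 in the numbered libraries. This was not particular to let-7, nor true of every short form. The 20 nt form of miR-125a-5p held 109 tags in Sham u and 4 to 9 in the numbered libraries. Its 19 nt form held none in Sham u and 1 to 3 in the numbered libraries.

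**Figure D4:**
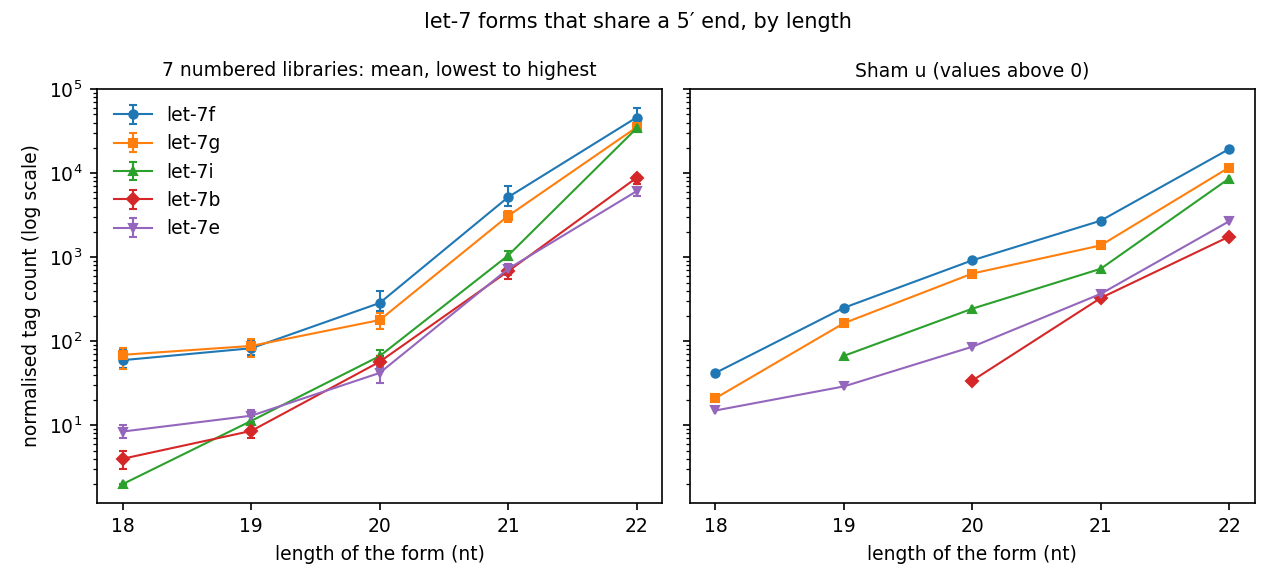
Normalised tag count (log axis) against the length of the form in nt for let-7f, let-7g, let-7i, let-7b and let-7e, with the mean and the lowest to highest value of the 7 numbered libraries on the left and Sham u on the right. On the left the let-7f mean falls from 45978 tags at 22 nt to 285 at 20 nt, while in Sham u the 20 nt form holds 918 beside 19366 at 22 nt.

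The 3′ extension was seen for let-7b only among the entries of the table. The 2 forms of 23 nt held 69.0% to 70.2% of the let-7b tags in the numbered libraries and 66.9% in Sham u. The form with an added U held 1.29 to 1.38 times the tags of the 22 nt form in the numbered libraries and 1.27 times in Sham u. The form with an added A held 1.14 to 1.17 times and 1.17 times. The annotation used held no let-7b hairpin, so whether either further base is encoded in the precursor was not tested. How the authors counted a tag that fits several entries is not given in the sources used here.

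Mismatched entries were rare in tags. Together the 56 held 22, 17 and 0 tags in Sham, 19, 18 and 0 in tGCI26h, and 18, 22 and 29 in HPC0h. The highest was novel_11793_x277 (let-7f with U18A), with 3 to 5 tags in each numbered library. Of the 56, 53 were of 18 nt and 22 matched several members equally, so that novel_1826_x3910, for example, is equally near to let-7f and let-7g.

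Among related microRNAs, a list of 18 names held those that share a primary transcript with let-7 genes in mammals and the opposite strands of the let-7 hairpins. Entries beginning with the first 16 bases of an annotated sequence were found for 10 of them, 27 entries in all, of which 19 were tested. The annotation used held no mature miR-99a-5p, so this microRNA could not be searched for. Its lack of a match here does not show that it has no entry. limma called 0 of 19 in each comparison over 9 libraries and 0 of 18 over the numbered ones. At an unadjusted p below 0.05 it found 0 of 19 over 9 libraries. Over the numbered libraries it found 1 of 18 in tGCI26h against Sham, 2 in HPC0h against Sham and 3 in HPC0h against tGCI26h, all higher, against 10%, 11.5% and 5.29% of all entries. Their median log2 difference was -1.28 in tGCI26h against Sham, 0.02 in HPC0h against Sham and 0.94 in HPC0h against tGCI26h, and 0.12, 0.23 and 0.02 over 18 entries in the numbered libraries. let-7d-5p, transcribed near let-7a-1 and let-7f-1, summed to 2039, 2152 and 1854 tags in Sham, 2510, 2411 and 0 in tGCI26h, and 1867, 1793 and 2439 in HPC0h. Its groups overlapped, and Sham u lay close to the other Sham libraries.

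miR-125b-5p, a relative of the worm lin-4 microRNA encoded near let-7 genes, summed to 11499, 15982 and 11911 tags in Sham, 10793, 13902 and 5487 in tGCI26h and 19479, 16306 and 13034 in HPC0h. miR-125a-5p, from the locus of let-7e, summed to 3636, 4236 and 4360 in Sham, 4214, 4444 and 10482 in tGCI26h and 4592, 3928 and 3645 in HPC0h. In tGCI26h u miR-125a-5p was thus higher than in any other library while let-7e was lower. Opposite strands of the let-7 hairpins were nearly without tags: the 6 entries found reached at most 20, in Sham u for let-7i-3p.

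The entries whose log2 values over the 7 numbered libraries were most like those of let-7f at 22 nt, among 335 entries of other microRNAs with a mean of at least 10, were 3 forms of miR-185-5p, with a Pearson r of 0.977, 0.952 and 0.948, a form of miR-330-3p at 0.933 and a form of miR-378a-3p at 0.931. These libraries share their groups and scaling, so this is a description only. The miR-185-5p form novel_4145_x1179 held 723, 770 and 160 tags in Sham, 1036, 848 and a blank in tGCI26h, and 592, 693 and 773 in HPC0h.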

How the data were processed

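Small RNA of the CA1 region was read in 9 libraries, 3 per group. Per the labels' protocols, Trizol RNA was ligated to adaptors, copied, amplified and size-selected before Illumina sequencing. Novoalign 3.02.12 and cutadapt 1.9.3 appear, with no role, among the tools of the submitters' processing notes. The genome build and the counting of tags that match several entries are not given in the sources used here. Each deposited value is a score, a tag count that the authors normalised, per the file headers, and that is rounded and sums to nearly equal library totals. A further 11 lines of the table had been emptied and are not reported here. Blanks were read as 0.

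Entries were compared with RefSeq mature sequences (GRCr8) from base 1 and given to the member with the fewest mismatches. Values were transformed as log2(value + 1), entries with a mean under 1 were dropped, and the 3 groups were fitted together in R 4.3.3 by limma 3.58.1, trend included. Calls used a Benjamini-Hochberg adjusted p below 0.05 over all entries fitted. The fit was tested on simulated data drawn from the means of the numbered libraries. That test does not show how the fit behaves with libraries like Sham u and tGCI26h u. Log2 differences on this scale understate changes of low entries. The filter of 1 left out entries such as novel_5857_x730 (mean 0.778) and kept novel_10739_x314 (mean 1.22). Summaries used Python 3.11.15 and pandas 2.3.3. The alternatives were pseudocount, filter, scaling, limma settings, blanks and libraries left out. Columns were placed by group from their headings, for HPC0h by inference, and carry no replicate number. Log2 differences under 1e-09 were counted as 0. Named entries were those given for the family, the most abundant and identical entry of each member, and the 10 most abundant. The 3 with the smallest p per comparison were also named, for HPC0h against tGCI26h from the numbered libraries only. Its fit of 9 libraries was described by the let-7b entries with the largest differences instead. Related microRNAs and likeness followed a written list and rule. The members, lists and rules were chosen with earlier results of these data known.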

Additional observations from a re-analysis of the deposited data

How the results depend on the processing

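No let-7 entry passed in any of the 24 alternative settings of each comparison, which covered pseudocounts of 0.5 and 10, other filters and scalings, limma settings, blanks as missing, library type as a covariate, each library left out and the 7 numbered libraries. At an unadjusted p below 0.05 limma found at most 9 let-7 entries, of 38 tested, in HPC0h against tGCI26h without tGCI26h a. All 9 were higher, while of all 2791 entries 46 were higher and 126 lower. The differences of the let-7 share were -1.29, 2.54 and 3.83 percentage points in tGCI26h against Sham, HPC0h against Sham and HPC0h against tGCI26h, and 0.96, -1.03 and -1.98 in the 7 numbered libraries. With 1 library left out they ran from -4.86 to 4.53, from -1.03 to 4.42 and from -1.98 to 7.33. The library-type covariate turned the let-7 median in HPC0h against Sham from 0.27 to -0.99, and reading blanks as missing brought that of tGCI26h against Sham from -1.84 to -0.04. Other denominators, family definitions and forms moved each by less than the spread between libraries and kept its sign. The numbered libraries with a mean of at least 10, median-of-ratios scaling or quantile normalization were chosen after seeing the data. No paired analysis was possible because the column headings carry no replicate number. Depth is unknown, so a blank says only that an entry was not listed.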

Other observations

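Each entry name carries a number after the letter x, whose meaning is not stated in the file. Over the let-7f forms of 18, 19, 20 and 21 nt this number was 5356926, 343886, 12109 and 1098, and it was lower again at 22 nt, while the normalised tag counts rose with length. Over the 48 let-7 entries above 0, the Spearman correlation of this number with the mean tag count was -0.03, a description across entries that share libraries. Among the 5282 names of this kind in the table, the number after x never rose with the number before it.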
